A study of Homo sapiens with 2 samples.

Results

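The genes described here are those of the mitochondrial ribosome, chosen by name as every gene on the array whose symbol starts with MRPL or MRPS followed by digits. In the platform annotation 77 such symbols have a probe set of their own, among 19775 genes that do. Of the 77, 75 name a ribosomal protein, 48 of them MRPL (large subunit) and 27 MRPS (small subunit). An antisense gene, MRPL20-AS1, and a pseudogene, MRPL45P2, make up the rest of the 77. MRPS24, MRPL53 and the pseudogene MRPS31P5 were read only by probe sets shared with another gene and were left out of the counts. RNA was measured in AGS cells, an epithelial line from a human gastric adenocarcinoma, on 2 one-colour Affymetrix arrays. One array held cells in which galectin-3, a beta-galactoside-binding lectin encoded by LGALS3, was silenced with a small interfering RNA, and the other held control cells. What the control cells received is not stated in the labels.

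Mitochondrial ribosomes translate the few messages of the mitochondrial genome, which encode core subunits of the respiratory chain and ATP synthase. All of their proteins are encoded in the nucleus, made in the cytosol and imported, while their RNA comes from the mitochondrial genome. Some of these proteins are relatives of bacterial ribosomal proteins, and others are found only in mitochondrial ribosomes. The cytosolic ribosome, built from RPL and RPS proteins, translates all other messages and was used for comparison.

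Values are signal intensities per probe set, and ratios are log2 of the silenced over the control array. Each group is a single array, so nothing described here could be tested against a spread between replicates. In such bulk RNA, fewer cells of a kind and less RNA per cell cannot be told apart. Genes were counted at 1.5-fold and at 2-fold. LGALS3 itself had a signal of 2699.8 on the silenced array and 20206 on the control array, a log2 ratio of -2.90. Of 10 epithelial markers 9 were above background, KRT18 at 35515 on the silenced and 32741 on the control array. Of these 9, CLDN4, VIL1 and KRT19 were 2.12-fold, 1.81-fold and 1.60-fold higher (33.3%, beside 10.6% of all measured genes at 1.5-fold). The other VIL1 probe sets had log2 ratios from -0.20 to 0.55. GPX2 was 4.05-fold lower (11.1% of the 9, beside 10.4%), with 792.1 on the silenced and 3208.8 on the control array. None of the 9 leukocyte markers on the array was above background on either array. Of 8 fibroblast markers 2 were. COL1A1 gave 1502 on the silenced and 816.3 on the control array, while its other 2 probe sets had log2 ratios of -0.55 and 0.53. THY1 passed background on the silenced array only, with 119.1 there and 90.2 on the control array. The part of these markers in the results was not tested.

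Messages for the mitochondrial ribosome differed little between silenced and control cells. None of the 75 genes (0) was 2-fold higher or lower on the silenced array, beside 3.31% of all 10514 measured genes higher and 3.07% lower. At 1.5-fold, 1 gene was higher (MRPS11) and 3 were lower (MRPL35, MRPL3 and MRPL58), beside 10.6% and 10.4% of all measured genes. The other 71 genes lay within 1.5-fold, which is 94.7% of the family and 79.0% of all measured genes. The background was close to this among the 6568 genes whose signals lie in the range of the family and of which 10.2% were 1.5-fold higher and 9.82% lower, while 197 genes were 2-fold higher and 201 (3.06%) lower.

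The family as a whole sat slightly to the low side. Its median log2 ratio was -0.10, with 51 genes under 0 and 24 above, while the median of all measured genes was -0.02, with 51.4% of them under 0. The quartiles of the family were -0.32 and 0.04, those of all genes -0.29 and 0.28. The sign of the family median depends on how the arrays are scaled, since setting the hybridization controls equal turned it to 0.08, where the whole array had a median of 0.17. That scaling moves every gene alike, so it could not change the family median minus that of all genes, -0.09 with either. For the same reason 49 of the 75 genes lay under the median of all genes in both cases. The family median minus that of all genes was -0.07 with quantile normalization and -0.12 with a lowess curve. The SD across the family was 0.29, against 0.52 across all measured genes and 0.51 across those in the same signal range. Genes in that range were dimmer, with a median signal of 1650 on the silenced array against 2837 for the family. On the control array these medians were 1647 and 3304. All 75 genes were above background on both arrays, with signals from 377.7 to 10171 on the silenced array and from 754.3 to 17191 on the control array.

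**Figure D1:**
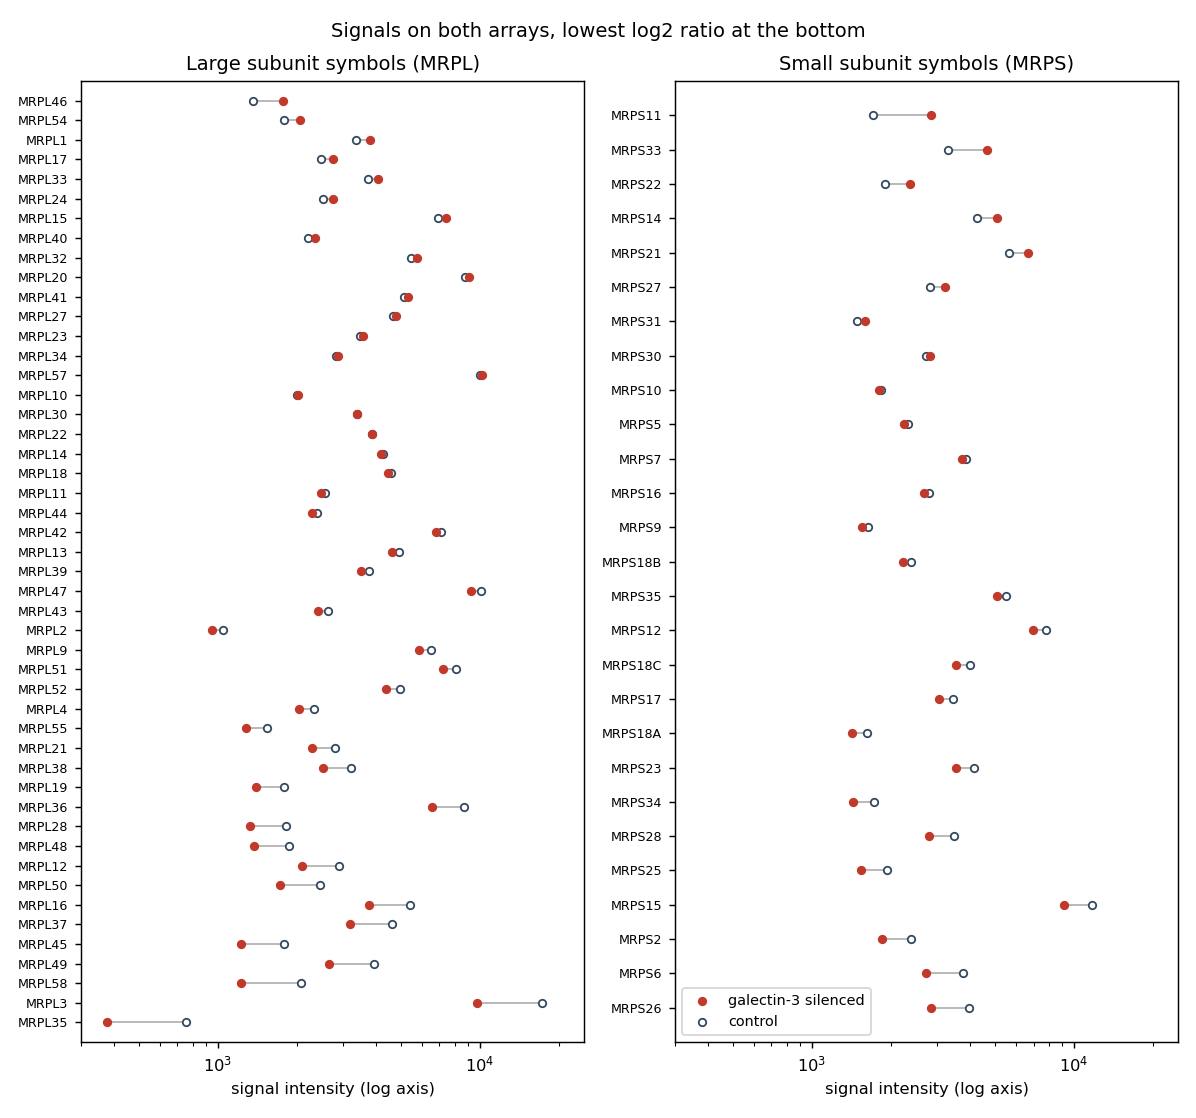
Signal intensity of each mitochondrial ribosomal protein gene on a log axis, for the galectin-3 silenced array (filled) and the control array (open), with MRPL genes on the left and MRPS genes on the right, ordered by log2 ratio. Most pairs of points lie close together, and the widest gaps are those of MRPL35, MRPL3, MRPL58 and MRPS11.

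The 3 genes lower by more than 1.5-fold, by the probe sets used, all belong to the large subunit. This does not hold without _s_at and _x_at probe sets, where MRPL35 was at -0.25 and MRPS16, of the small subunit, at -0.64. MRPL3, a relative of bacterial protein L3 that lies close to the centre where peptide bonds form, had signals of 9724 on the silenced array and 17191 on the control array, a log2 ratio of -0.82. MRPL58, also called ICT1, a peptidyl-tRNA hydrolase that is built into the large subunit, had 1220.4 on the silenced array and 2073.3 on the control array, with a log2 ratio of -0.76. Both genes were read by a single probe set, so neither difference is repeated elsewhere on the array. MRPL35, a relative of bacterial L35, had the lowest ratio of the family at -0.998, just short of 2-fold, with 377.7 on the silenced array and 754.3 on the control array. A brighter MRPL35 probe set of the cross-hybridising _x_at kind gave 2783.2 on the silenced and 3102.7 on the control array, a log2 ratio of -0.16, and another, close to background, gave -0.25.

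The 250 bases before the starts of MRPL3 and MRPL58 are printed here, from RefSeq (GRCh38.p14), because both genes passed 1.5-fold. They lie at chr3:131502972-131503221 on the minus strand and chr17:75012420-75012669 on the plus strand. Capitals mark the core CCGGAAG, on either strand, that is bound by ETS factors such as GABP, a known activator of nuclear genes for mitochondria. MRPL3 holds it once and MRPL58 on both strands. The core was present in 38.6% of the family's promoter windows and in 12.8% of windows of protein-coding genes, as described below. MRPL35, the lowest gene, had no promoter window at hand. Whether the core bears on these ratios was not tested.
MRPL3: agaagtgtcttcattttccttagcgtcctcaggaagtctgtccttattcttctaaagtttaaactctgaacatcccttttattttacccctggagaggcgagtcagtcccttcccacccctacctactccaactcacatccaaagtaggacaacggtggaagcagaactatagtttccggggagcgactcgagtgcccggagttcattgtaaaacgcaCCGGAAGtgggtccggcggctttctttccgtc
MRPL58: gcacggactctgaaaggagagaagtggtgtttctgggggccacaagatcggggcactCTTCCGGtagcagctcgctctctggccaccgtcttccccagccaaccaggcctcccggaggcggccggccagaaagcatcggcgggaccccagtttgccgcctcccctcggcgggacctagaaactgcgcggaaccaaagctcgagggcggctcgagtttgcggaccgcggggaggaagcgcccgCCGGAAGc

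Below these came 5 more large subunit genes, from 1.42-fold to 1.48-fold lower. MRPL49, MRPL45, MRPL37, MRPL16 and MRPL50 had log2 ratios of -0.56, -0.54, -0.54, -0.52 and -0.50. MRPL49 had signals of 2658.8 on the silenced array and 3924.4 on the control array, and MRPL37 had 3180.6 on the silenced array and 4610.3 on the control array. MRPL50 is the one gene of these whose ratio was repeated, since a second probe set gave 1186.3 on the silenced and 1707.7 on the control array, a log2 ratio of -0.53. Another MRPL50 probe set, a dim one of the _x_at kind, gave 0.09.

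At the other end stood MRPS11. This relative of bacterial S11 had 2839.8 on the silenced array and 1708.7 on the control array, 1.66-fold higher. Its second probe set went the other way, with 112.3 on the silenced and 164.2 on the control array, close to background. MRPS33, a protein found only in mitochondrial ribosomes, had 4639.4 on the silenced array and 3303.7 on the control array, a log2 ratio of 0.49 from 1 probe set. MRPL46 followed at 0.39, then MRPS22 at 0.31, MRPS14 at 0.26, MRPS21 at 0.24, MRPL54 at 0.21 and MRPS27, a pentatricopeptide repeat protein, at 0.19. For MRPS22 all 4 probe sets were above 0, from 0.05 to 0.37, though all are of the _x_at kind.

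Large and small subunit genes had nearly the same median log2 ratio, -0.10 for MRPL and -0.11 for MRPS genes, a difference of 0.01. The 8 lowest genes were all MRPL, and 6 of the 8 highest were MRPS, which make up 27 of the 75 genes. With the median over each gene's probe sets these counts were 7 and 4, and without _s_at and _x_at probe sets, which leaves 39 genes, 6 and 2. These tail counts were made after the values were seen. Under 0 lay 32 of 48 MRPL genes and 19 of 27 MRPS genes. The difference between subunits turned to -0.03 without _s_at and _x_at probe sets.

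**Figure D2:**
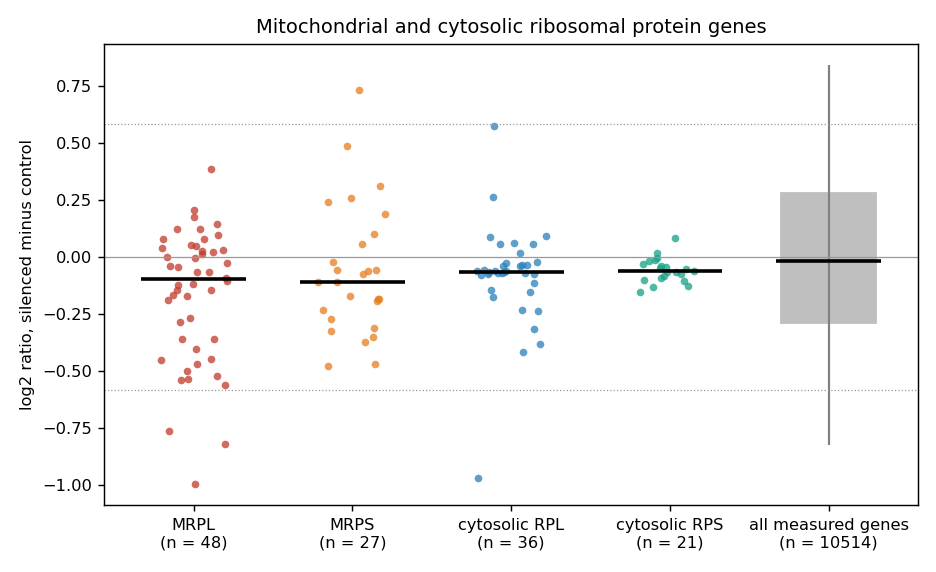
Log2 ratio (silenced minus control) of each gene, with the median of each class as a black line, for MRPL, MRPS, cytosolic RPL and cytosolic RPS genes. The grey box spans the quartiles of all 10514 measured genes and the grey line their 5th to 95th percentiles, and dotted lines mark 1.5-fold. Both mitochondrial classes centre near -0.10, and cytosolic RPS genes are packed between -0.15 and 0.08.

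Cytosolic ribosomal protein genes were also close to 0. Their median log2 ratio was -0.06 over 57 measured genes, with 47 under 0, and the mitochondrial median minus the cytosolic one was -0.04. The quartiles were -0.10 and -0.03, against -0.32 and 0.04 for the mitochondrial family. The median was -0.06 for 36 RPL genes and -0.06 for 21 RPS genes. Quantile normalization put the cytosolic median at 0.00 and a lowess curve at 0.01, so its direction turned with the scaling. The mitochondrial median minus the cytosolic one was wider there, -0.09 with quantile normalization and -0.10 with the lowess curve. The cytosolic genes gave median signals of 31838 on the silenced and 34550 on the control array, near the top of the scale, where the highest signal of any measured gene was 51901 on the silenced and 54209 on the control array. Whether that position narrows their ratios was not tested. One of them passed 1.5-fold, RPLP2, a protein of the cytosolic ribosomal stalk, at least 1.96-fold lower. Its probe set gave 53.6 on the silenced array, under background, and 214.4 on the control array. Next were RPL10L at a log2 bound of -0.42 and RPL31 at -0.38. The highest were RPL36A at a bound of 0.57, RPL22 at 0.26 and RPL22L1 at 0.09. RPL10L gave 84.2 on the silenced and 146.1 on the control array, and RPL36A gave 206 on the silenced and 125.5 on the control array. The probe sets of RPLP2, RPL10L and RPL36A thus passed background on a single array, far below the median signals of the list.

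Within the large subunit, genes were grouped by place in the structure. The stalk recruits translation factors, and of its 3 proteins MRPL12, a relative of bacterial L7/L12 that also binds the mitochondrial RNA polymerase, had 2097.4 on the silenced array and 2900.6 on the control array, a log2 ratio of -0.47. MRPL10, which anchors it, was at 0.01 and MRPL11 at -0.04. Around the exit of the peptide tunnel MRPL45, which faces the inner membrane, had 1226.6 on the silenced array and 1785.3 on the control array. The other exit-site genes were MRPL47 at -0.12, MRPL22 at -0.0041, MRPL23 at 0.03, MRPL24 at 0.12 and MRPL17 at 0.15. The central protuberance, which faces the small subunit, held the widest spread, from MRPL58 at -0.76 to MRPL46 at 0.39. Between them were MRPL48 at -0.45, MRPL38 at -0.36, MRPL18 at -0.04 and MRPL40 at 0.08.

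Genes were also split by descent from bacterial proteins. In the large subunit the median log2 ratio was -0.04 for 30 genes with bacterial relatives and -0.14 for 18 mitochondria-specific ones. In the small subunit it was -0.11 for 17 with bacterial relatives, 14 of them under 0, and -0.03 for 10 mitochondria-specific ones, 5 of them under 0. The 3 relatives of bacterial S18 were close together, with MRPS18A at -0.19, MRPS18C at -0.18 and MRPS18B at -0.11. Both MRPS18A and MRPS30 are now known to sit in the large subunit, and MRPS30 was at 0.06. Counting them there left the medians at -0.10 for the large and -0.11 for the small subunit.

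Probe sets of one gene served as the one available check on the single-gene values. The 75 genes have 140 probe sets of their own, of which 119 were above background on both arrays, 2 on 1 array and 19 on neither. Of the 119, 81 had a ratio under 0 (68.1%, beside 52.5% of all probe sets above background on both arrays), and none reached 2-fold. In 27 genes with several such probe sets, 71 probe sets in all, all pointed the same way in 17, 14 of them lower and 3 higher. The matching share over all genes with several probe sets was not counted. With few probe sets per gene and most under 0, many can share a sign without being close in size. The SD between probe sets of one gene was 0.25 in the family and 0.32 over 4728 genes on the array. These probe sets read the same RNA, so this is not a spread between cultures. The ratio used for the gene lay within 0.3 of 0 in 51 of the 75 genes. The quartiles of all measured genes, -0.29 and 0.28, lie in that band too, and their exact share within it was not counted.

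**Figure D3:**
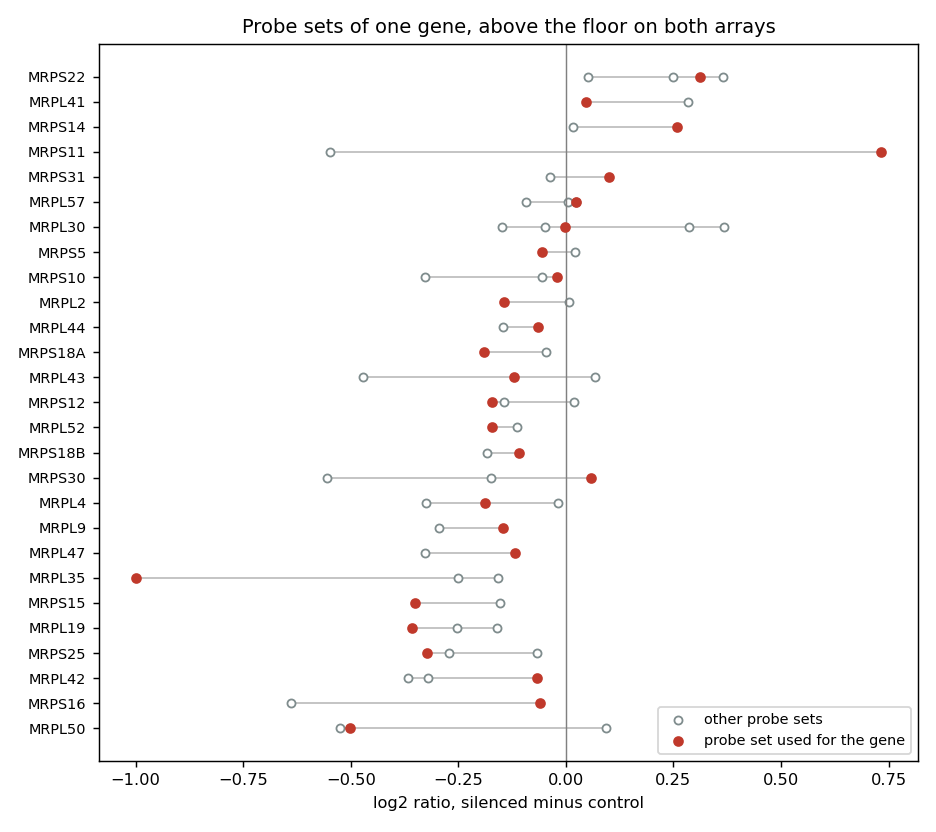
Log2 ratio (silenced minus control) of every probe set above background on both arrays, for the 27 genes with 2 or more, ordered by the gene's median. Filled points mark the probe set used for the gene and open points the others. MRPS11 spans from -0.55 to 0.73 and MRPL35 from -0.998 to -0.16.

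In 7 of the 27 genes with several probe sets above background on both arrays, these differed by 0.5 or more in log2 ratio. The matching share over all genes on the array was not counted. Besides MRPS11, MRPL35 and MRPL50 the 7 genes were MRPS30, MRPS16, MRPL43 and MRPL30. For MRPS16 a second probe set gave 773.9 on the silenced and 1205.8 on the control array, a log2 ratio of -0.64, while the brighter one gave -0.06. The MRPS30 probe sets ran from -0.55 to 0.06, those of MRPL43 from -0.47 to 0.07 and those of MRPL30 from -0.15 to 0.37. Some probe sets could not be given to 1 gene. The only one for MRPS24, shared with the read-through gene URGCP-MRPS24, gave 8354.5 on the silenced and 9985.4 on the control array, and one shared by MRPL53 and CCDC142 gave 4437.4 on the silenced and 3804.7 on the control array. MRPL45P2 was under background on both arrays. The antisense gene MRPL20-AS1 had 327.5 on the silenced and 455.8 on the control array, a log2 ratio of -0.48, whereas MRPL20 itself was at 0.05.

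Genes that work with the mitochondrial ribosome were read from lists, to be set beside the 10.6% of all measured genes that were 1.5-fold higher and the 10.4% that were lower. Of 5 ribosomal proteins with other symbols, 4 had a probe set of their own, and DAP3, the GTP-binding protein of the small subunit, was highest at 0.25, although its other probe sets gave -0.36 and -0.09. PTCD3 was at 0.05 with its other 3 probe sets from -0.45 to -0.31, GADD45GIP1 at -0.10 and CHCHD1 at -0.19. Of 13 translation factors measured 1 was 1.5-fold lower (7.69%, beside 10.4%) and none higher, with a median of -0.11. That one was GFM1, the elongation factor that moves the ribosome along the message, with 1883.2 on the silenced array and 3730.1 on the control array. All 4 GFM1 probe sets were lower, the other 3 with log2 ratios from -0.73 to -0.17. MTIF3, an initiation factor, was highest at 0.52, followed by MTRF1 at 0.37 (-0.29 on another probe set) and MTIF2 at 0.24. Of 24 assembly factors 1 was 1.5-fold higher and 1 lower (4.17% each, beside 10.6% and 10.4%), with a median of -0.12. YBEY, an RNA endonuclease, was at 0.72 on one probe set but at -0.32 and -0.51 on its others, and MRM1, a methyltransferase for the ribosomal RNA, was at -0.65. MTG1, a GTPase, was at 0.52 and MRM3 at -0.47.

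Enzymes that charge mitochondrial tRNAs, measured for 18 genes, had a median log2 ratio of -0.11, with 3 of them 1.5-fold lower (16.7%, beside 10.4%) and none higher. These were YARS2 with 1299.9 on the silenced and 2437.4 on the control array, NARS2 with a log2 ratio of -0.66 and AARS2 with -0.64, for which another probe set gave -1.35. LARS2 followed at -0.56. Of 14 genes for mitochondrial transcription and RNA processing 1 was 1.5-fold lower (7.14%, beside 10.4%). It was PRORP, the protein-only ribonuclease P subunit, for which the silenced array was under background and which was at least 1.99-fold lower. SUPV3L1, a helicase of RNA decay, was at -0.58 and the RNA polymerase POLRMT at -0.53. TFAM, which packages mitochondrial DNA and starts its transcription, was at -0.54, with its other probe sets from -0.72 to -0.64. Of 9 nuclear regulators 2 were 1.5-fold lower (22.2%, beside 10.4%) and none higher. NRF1, a transcription factor for such genes, had 310.4 on the silenced and 499.8 on the control array, a log2 ratio of -0.69, with others at -0.55 and -0.18. PPARGC1B, a coactivator, was at -0.84 but close to background, PPRC1 at -0.25 and ESRRA at 0.21 (-0.21 on another probe set). GABPA and YY1, named outside the rule because their motifs are described next, were at 0.07 and -0.08. The other GABPA probe set gave -0.03, and the other 5 of YY1 were lower, from -0.95 to -0.23. None of the 16 measured genes for import and mitochondrial mass passed 1.5-fold. Their median was -0.16, and the lowest were the import channel TOMM40 at -0.52, the receptor TOMM20 at -0.44, the chaperone HSPA9 at -0.42 and the co-chaperonin HSPE1 at -0.24.

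Promoters were searched for 3 short elements that the choice of members did not use, and each was found in a minority of the family's windows. RefSeq windows from 250 bases before to 50 after a start were at hand for 67 of the 75 genes, 83 windows in all. The ETS core CCGGAAG, read on both strands, was present in 38.6% of these windows and in 12.8% of 22198 windows of protein-coding genes. The core AAGATGG of YY1, a zinc finger factor, was present in 31.3% of windows of the family and 6.04% of all coding windows. The core GCATGCG of NRF1 was present in 8.43% of windows of the family and 4.63% of all coding windows. The ETS core ends in the letters with which the YY1 core begins, so a stretch can hold both. A match of letters is a description and not evidence of binding. The 29 genes with the ETS core had a median log2 ratio of -0.12 and the 38 without it -0.07, those with the YY1 core (23 genes) -0.11 and those without -0.09. The 7 genes with the NRF1 core were at -0.11 and the 60 without it at -0.09.

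Many of the genes also start back to back with a neighbour, and 20 of the 67 genes (29.9%) had a protein-coding gene on the other strand whose start lay within 1000 bases, pointing away. The share among all protein-coding genes in the table was 12.3%. One such pair lies within the family. MRPL46 and MRPS11 start 320 bases apart on chromosome 15, and by the probe sets used they were the third and the first of the family by ratio. The place of MRPS11 rests on 1 of its 2 probe sets, since the other gave -0.55 and their median was 0.09. MRPL46 was read by a single probe set. MRPL46 had 1773.6 on the silenced array and 1355 on the control array. Sequences between the starts are printed here for this pair (the 250 bases next to MRPS11, chr15:88467458-88467707), for MRPL57 and SKA3 (chr13:21176553-21176657) and for MRPL49 and FAU (chr11:65122135-65122182), all on the plus strand of GRCh38.p14. They are shown because both genes of the first pair are, by the probe sets used, among the highest of the family. In the others the ratio of the family member minus that of its neighbour was 0.85 for MRPL57 and -0.50 for MRPL49. None of the 3 cores is found in them, so no base is in capitals.
MRPS11 and MRPL46: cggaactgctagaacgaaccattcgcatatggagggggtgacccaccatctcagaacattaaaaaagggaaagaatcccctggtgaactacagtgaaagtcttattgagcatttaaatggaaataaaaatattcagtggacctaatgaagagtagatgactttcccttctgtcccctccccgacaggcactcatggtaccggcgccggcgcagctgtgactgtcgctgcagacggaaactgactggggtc
MRPL57 and SKA3: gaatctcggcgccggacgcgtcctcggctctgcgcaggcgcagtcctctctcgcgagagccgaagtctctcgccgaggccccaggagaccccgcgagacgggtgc
MRPL49 and FAU: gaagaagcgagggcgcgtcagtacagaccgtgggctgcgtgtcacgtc

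Other neighbours lie outside the family. In 17 measured pairs with a gene outside the family, the family member passed 1.5-fold in none and the neighbour in 3 (1 higher, 2 lower), beside 10.6% of all measured genes higher and 10.4% lower, so 3 of 17 is no more than that background. The signs were the same in 7 pairs. SKA3, a kinetochore protein needed in mitosis, had 470.5 on the silenced array and 834.8 on the control array, a log2 ratio of -0.83. MRPL57, which starts 106 bases away, had 10171 on the silenced array and 9999.8 on the control array, a log2 ratio of 0.02. NCAPD2, a condensin subunit, was 2.20-fold lower, with 851.3 on the silenced and 1872 on the control array, whereas MRPL51, 840 bases away, was at -0.17. The zinc finger gene ZNF189 was 1.74-fold higher with 1702.4 on the silenced and 977 on the control array, while MRPL50 was at -0.50. FAU, which encodes a cytosolic small subunit protein, starts 49 bases from MRPL49 and was at -0.06, against -0.56 for MRPL49.

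**Figure D4:**
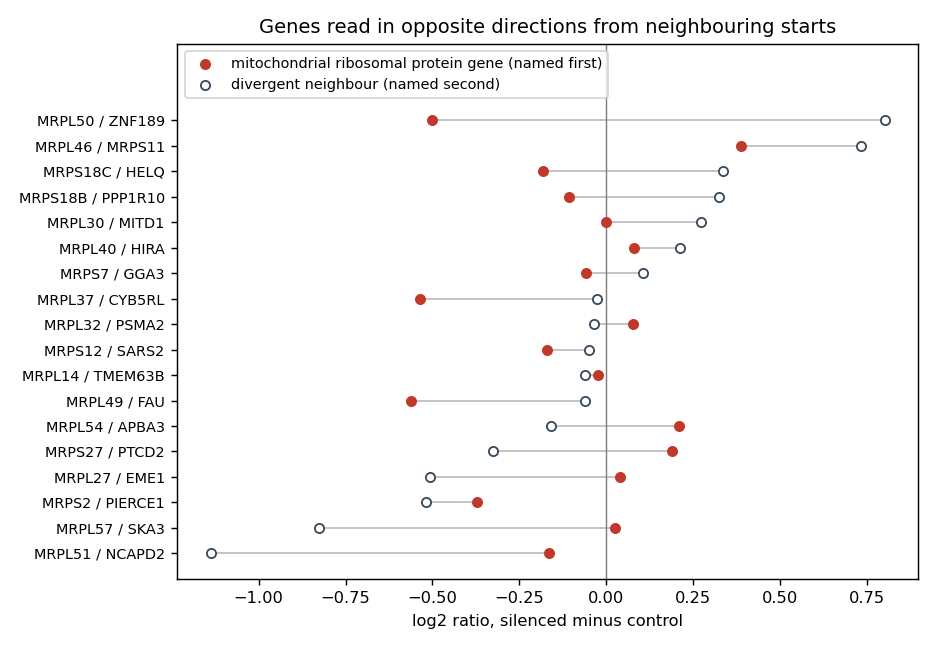
Log2 ratio (silenced minus control) of mitochondrial ribosomal protein genes (filled, named first) and of the neighbour that starts within 1000 bases on the other strand (open, named second), with a line joining each pair. The open points run from -1.14 for NCAPD2 to 0.80 for ZNF189, and the filled points from -0.56 to 0.39. MRPS11, itself of the family and at 0.73, is drawn open as the neighbour of MRPL46.

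The counts depend on scaling and on the probe set chosen. With the poly-A controls set equal, 17 members were 1.5-fold lower and 2 passed 2-fold, and the median of all genes was then -0.25. The share of all genes past each fold was not counted under this or the other settings. The counts given here therefore have no background beside them. Taking the median over a gene's probe sets put MRPL35 at -0.25 and MRPS11 at 0.09, both within 1.5-fold. MRPL3 and MRPL58 have 1 probe set each, which that choice cannot change. With the hybridization controls set equal MRPL58 was at -0.58 and no longer 1.5-fold lower, which left 2 such members, and MRPS33 at 0.67 passed 1.5-fold higher beside MRPS11.

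**Figure D5:**
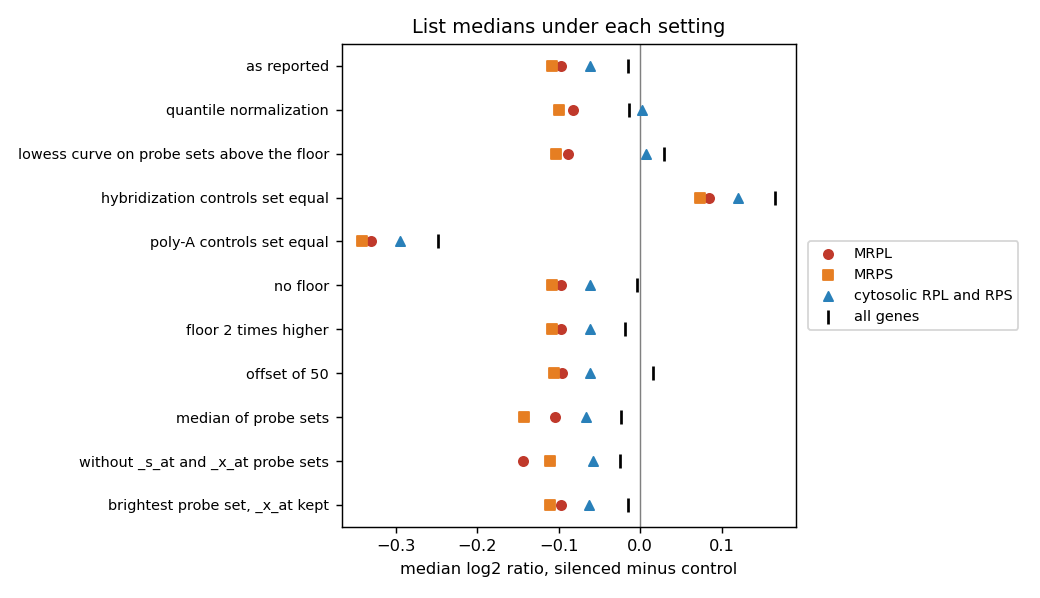
Median log2 ratio (silenced minus control) of MRPL, MRPS and cytosolic ribosomal protein genes and of all genes, as reported and under each of 10 other settings. The medians of the family stay left of that of all genes in every setting shown, and all of them shift together when the hybridization or poly-A controls are set equal.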

How the data were processed

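RNA from AGS cells, 1 galectin-3 silenced and 1 control array, was extracted with Trizol and labelled with biotin, per the labels' protocols. The deposited values are signal intensities on a linear scale, and MAS5 is named per the submitters' processing notes; its version, scaling target and filters are not stated there. Both arrays had a 2% trimmed mean of 500.07, so the deposited scaling was kept.

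Probe sets were named from the platform's annotation, and the 1801 with several symbols named no gene. Background was set from 135 olfactory receptor probe sets, at their 95th percentile, 109.5 on the silenced and 138.4 on the control array. Lower signals were raised to it, so a ratio with 1 array under it is a bound. Each gene took its probe set of highest mean log2 signal, leaving out _x_at probe sets where it had another. Named genes follow a written rule: members past 1.5-fold, the 8 highest and 8 lowest, members whose probe sets differ by 0.5 or more, the structural groups, the 3 highest and lowest cytosolic genes, and up to 4 of the largest ratios of each other list. GABPA and YY1 were named beside their motifs, and epithelial markers past 1.5-fold with KRT18, after their values were seen. The divergent neighbours and promoter elements were added later, and neighbours were named after their values were seen. The members and lists were chosen with earlier results of these data known. Pseudogenes, kinases and Y-linked genes were left out of the cytosolic list.

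Python 3.11.15 with numpy 2.4.6, pandas 2.3.3 and statsmodels 0.14.6 was used after the procedure had been tested on simulated data. No test exists with 1 array per group, and precision is limited by the number of arrays. Alternatives varied the scaling, the background floor, an offset and the choice of probe set. The smoothing span of the lowess curve was 0.3. RefSeq promoter windows are those of GRCh38.p14.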

Additional observations from a re-analysis of the deposited data

How the results depend on the processing

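No paired analysis was possible because each group has 1 array. Of the recomputed summary values 77 stayed within tolerance (medians within 0.1 with the same sign, counts within 1.5 times), 11 moved further and 7 changed sign. The 77 include values that could not change. The family's own values are identical without a floor and with a floor 2 times higher, since all members lie above it. Differences between lists are identical when the hybridization or the poly-A controls are set equal. The family's medians kept their sign except with the hybridization controls set equal, when they were 0.0785 for all members, 0.0842 for MRPL and 0.0734 for MRPS, with the cytosolic median at 0.12 and 2 members 1.5-fold higher. The count of members 1.5-fold lower, within tolerance, was 2 in place of 3 there (without MRPL58, at -0.58), with the median of probe sets and with the brightest probe set (without MRPL35). With the poly-A controls set equal the family medians were -0.34, -0.33 and -0.34, the cytosolic median was -0.29, no member (0) was 1.5-fold higher, 17 were 1.5-fold lower and 2 passed 2-fold. These 2 scalings move every gene alike. The array median became 0.17 and -0.25, and the family median minus it was -0.09 with each. The share of all genes past 1.5-fold or 2-fold was not counted under them. The cytosolic median turned to 0.0019 with quantile normalization, where 1 member passed 2-fold, and to 0.0075 with the lowess curve. With the median of probe sets, and without _s_at and _x_at probe sets, 0 members were 1.5-fold higher. The second left 39 members and a difference between subunits of -0.0330. Its count of members 1.5-fold lower stayed at 3, but with MRPS16, at -0.64, in place of MRPL35, at -0.25. MRPL35 moved to -0.25 with the median of probe sets and to -0.16 with its brightest probe set, an alternative chosen after seeing the data, and MRPS11 to 0.09 with the median of probe sets. Dim probe sets limit the check within genes.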
